A study of Saccharomyces cerevisiae with 12 samples.

Results

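Cells of the yeast Saccharomyces cerevisiae that were growing on ethanol were given a pulse of glucose, and their transcripts were measured 20 min later. The results below concern the reference strain of the series, KOY.PK2-1C83P, in the CEN.PK laboratory background, which keeps its hexose transporter genes. It was compared at 20 min with the same strain at 0 min, before the pulse, in all S. cerevisiae genes with a probe set on the array, which were 5449. The 6 arrays of this strain are 6 of the 12 in the series. The other 6 come from an isogenic strain, KOY.VW101P, from which all known hexose transporter genes were deleted, and which is called the null strain. Both strains were grown in chemostats limited by ethanol, which are continuous cultures whose feed sets the rate of growth (dilution rate 0.1 per h), and each strain and time has 3 arrays from biological replicates. The sources used here do not state the glucose dose. RNA of a whole culture was hybridised to each Affymetrix Yeast Genome 2.0 array, so a change in all cells and a change in the share of cells with a transcript cannot be told apart.

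Growth on ethanol requires yeast to build sugars from small carbon compounds and to obtain energy by respiration. Glucose, the preferred carbon source, represses the genes for these tasks. It acts through the Snf1 kinase and the Mig repressors, through glucose sensors in the plasma membrane that control the hexose transporters, and through cyclic AMP and protein kinase A, which favour growth and ribosome production over stress resistance. The title of the series poses the question of whether this response needs glucose to be taken up, and the reference strain supplies the response of cells that can do so.

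Values are log2 intensities after quantile normalization, and a change is the mean at 20 min minus the mean at 0 min, so that 1 unit is a doubling of intensity. The lowest deposited value of the arrays lay between 2.01 and 2.11 and the highest at 15.96. Before normalization the medians of the arrays lay between 10.34 and 10.90, and between 156 and 201 genes per array lay within 0.25 of its lowest value. Genes were called at an adjusted p under 0.05 in a limma fit over all genes.

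The arrays of replicate 2 lay with the opposite time label. This was seen first in the genes chosen to mark the response. HXT1, which glucose induces and which encodes a transporter of low affinity, had 13.20, 4.68 and 13.57 at 20 min, against 4.76, 13.18 and 5.25 at 0 min, each time in the order of replicates 1, 2 and 3. FBP1, which encodes fructose-1,6-bisphosphatase of gluconeogenesis, had 9.32, 14.64 and 9.38 at 20 min, against 14.52, 9.34 and 14.66 at 0 min. MIG2, a repressor made in the presence of glucose, had 11.05, 2.07 and 11.38 at 20 min, against 2.82, 10.96 and 2.10 at 0 min. In all 3 genes the replicate 2 array of each time lay among the values of the other time, so the groups overlapped. Over all 3 replicates HXT1 averaged 10.48 ± 5.03 at 20 min and 7.73 ± 4.72 at 0 min (SD, n = 3 each), and a two-sided exact permutation test gave p = 0.7 for HXT1, 0.7 for FBP1 and 0.6 for MIG2, where the smallest p possible with 3 against 3 is 0.1. Over all 5449 genes, which are not independent replicates, the array labelled 20 min replicate 2 correlated at 0.994 and 0.995 with replicates 1 and 3 at 0 min, and at 0.725 and 0.718 with replicates 1 and 3 at 20 min. The array labelled 0 min replicate 2 correlated at 0.994 and 0.990 with replicates 1 and 3 at 20 min, and at 0.729 and 0.726 with those at 0 min. No array was moved to another group here.

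**Figure D1:**
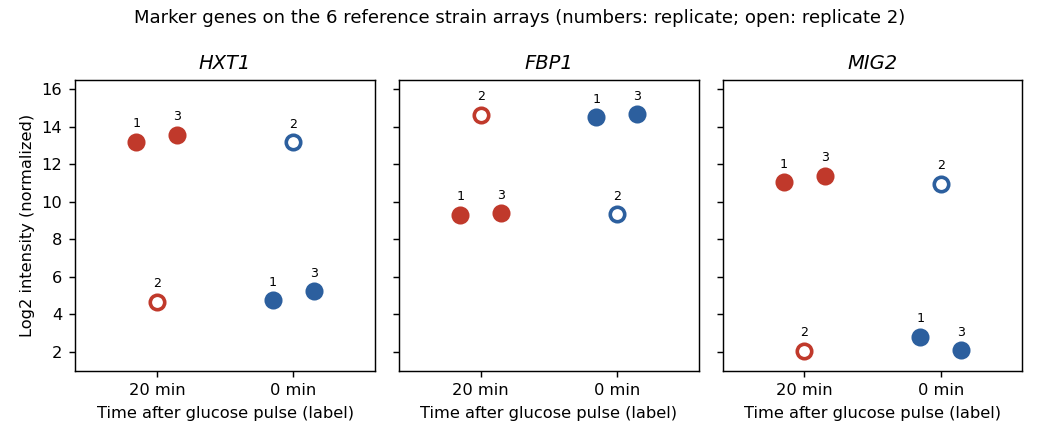
Log2 intensity (vertical axis) of HXT1, FBP1 and MIG2 on each of the 6 arrays of the reference strain, with the 20 min arrays left of the 0 min arrays and 1 point per array. Filled points are replicates 1 and 3 and open points are replicate 2, which lies at the level of the other time in each of the 3 genes.

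With all 3 replicates under their labels, 0 of 5449 genes were called by limma (0%), and 16 had an unadjusted p under 0.05. Down-weighting discordant arrays in that fit called 4220. The changes given from here on use replicates 1 and 3 of each time, a choice made because of the values above, and their p-values do not include that choice. With 2 arrays a group they measure only the spread between these arrays. Where 2 values are given for a time they are those of replicates 1 and 3, in that order. The fit also holds replicates 1 and 3 of the null strain, which share the estimate of the spread. Replicate 2 of the null strain was left out by the same choice, though the values above are those of the reference strain.

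At 20 min, 3940 of the 5449 genes differed from 0 min (72.3%). Of these, 2140 rose (39.3% of all genes) and 1800 fell (33.0%). A test for changes of over 1 log2 unit called 985 that rose and 978 that fell. The size of the changes was not alike in both directions. The median change was 1.51 among genes that rose and -1.69 among genes that fell, and 87 genes rose by at least 4 log2 units while 254 fell by as much. At 6 units or more there were 16 and 47. The middle gene of all 5449 changed by 0.13, by -0.38 in the values as deposited, by 0.11 with arrays centred on their medians and by 0.24 with arrays centred on 4 reference genes. The split between directions rests on this scaling, since the deposited values gave 1419 genes that rose and 2491 that fell (36.3% of the called genes rose, against 54.3% after normalization). The scalings differ most for dim genes. Before normalization the 10th percentile of the genes lay at 5.16 and 5.15 on the 20 min arrays of replicates 1 and 3, and at 8.17 and 8.26 on the 0 min arrays, while the 90th percentile differed little (13.28 and 13.29 at 20 min, 13.18 and 13.32 at 0 min). Quantile normalization gives every array the same distribution, so it moved the change of genes with a mean of 6 to 8 upward by a median of 2.33, of genes at 8 to 10 by 1.24, at 10 to 12 by 0.43 and at 12 to 14 by 0.04. For this reason the text adds the change in the deposited values wherever it differed from the normalized one by over 1.5-fold or was not called in the same direction, and gives both sets of counts for every list. Exceptions are the bounds of genes at the lowest value and the changes in the null strain, given in normalized values only. The normalized counts of a list stand beside the 39.3% that rose and 33.0% that fell of all genes. The deposited counts of a list stand beside the 1419 that rose and 2491 that fell of all 5449 genes. Under all 4 scalings, 1407 genes were called as rising and 1549 as falling.

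Replicates 1 and 3 each gave nearly the same changes. Across genes, the change in replicate 1 and the change in replicate 3 had the same sign in 91.5% of cases and correlated at 0.970 (Pearson's r, as a description, since genes are not independent). In the pair of arrays numbered 2, the change as labelled was opposite in sign in 99.7% of the 3940 called genes. The 2 groups did not overlap in 4716 genes with replicates 1 and 3 (86.5%), and in 67 genes with all 3 replicates (1.23%). The plot of changes by replicate shows both relations.

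**Figure D2:**
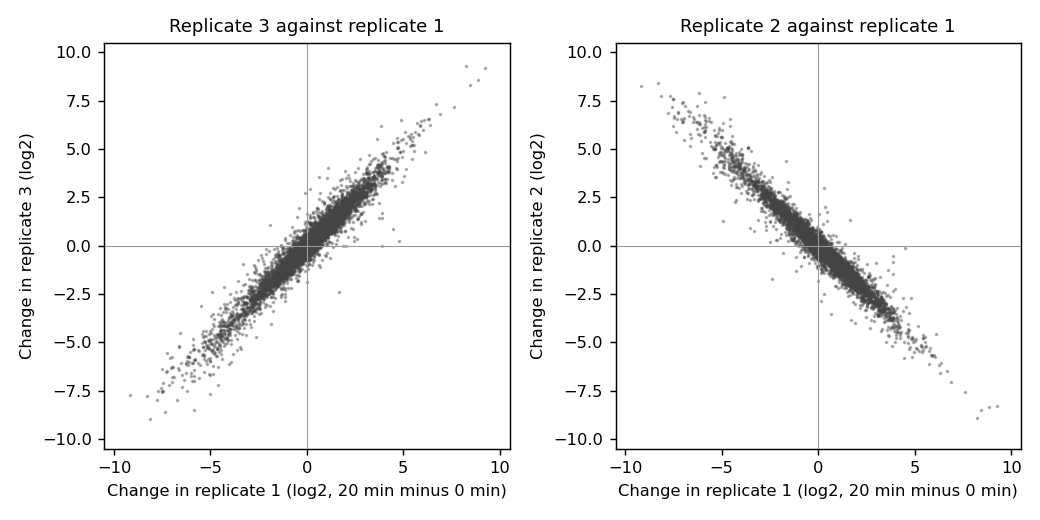
Change at 20 min against 0 min of each of the 5449 genes in replicate 1 (horizontal axis, log2) against replicate 3 (left panel) and against replicate 2 (right panel), with 1 point per gene. The points run along the rising diagonal on the left (r = 0.970) and along the falling diagonal on the right (r = -0.976).

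With replicates 1 and 3 the 3 markers stood far apart between the times. Replicate 2 was set aside in part by the values of these same genes. Their separation and p-values here are therefore no independent evidence of a response. HXT1 rose by 8.38 (7.36 as deposited) (SE 0.20, adjusted p = 9.57e-06) and MIG2 by 8.76 (SE 0.36, adjusted p = 2.33e-05), while FBP1 changed by -5.24 (SE 0.16, adjusted p = 1.4e-05). The pooled spread includes the null arrays, where HXT1 is deleted and its change was 0, which can make its SE and p too small. The SD of HXT1 between the 2 reference arrays was 0.26 at 20 min and 0.35 at 0 min. The rise of HXT1 amounts to 334-fold and the fall of FBP1 to 37.7-fold, each between means of 2 arrays. MIG2 lay within 0.25 of the lowest value on 1 of the 2 arrays at 0 min, so the size of its rise is limited by the range of the array.

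Among called genes at least 1 log2 unit above the lowest deposited value and below the highest on all 4 arrays, HXT1 had the second largest rise. The largest was that of YMR244W, a gene with no given name, which had 13.93 and 13.92 at 20 min, against 5.07 and 5.36 at 0 min (change 8.71, 7.64 as deposited, SE 1.40, adjusted p = 0.00252). AQR1, a plasma membrane exporter of the major facilitator family, had 14.05 and 14.10 at 20 min, against 6.43 and 6.91 at 0 min (change 7.41, 6.25 as deposited, SE 1.01, adjusted p = 0.00132). The SEs of both genes are wide beside their reference arrays, because the fit pools the spread of all groups, and a fit of the reference arrays alone gave 0.14 for YMR244W and 0.20 for AQR1. YBR238C rose by 7.02 (6.17 as deposited), EFM6, a methyltransferase of translation elongation factor 1A, by 6.85 (5.91 as deposited), and PHO3, an acid phosphatase of the cell surface, by 6.41 (5.10 as deposited). INA1 rose by 6.33 (5.06 as deposited) and ANS1 by 6.27 (5.0 as deposited) (adjusted p from 1.4e-05 for INA1 to 0.0145 for ANS1). The 8 genes with the largest rises so hold 1 known glucose transporter, 1 exporter and 1 surface enzyme, beside genes of little known role.

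The 8 largest falls within the same limits (at least 1 log2 unit above the lowest value on all 4 arrays) included genes of amino acid breakdown, glycogen use and lipid uptake. ARO10, the decarboxylase of the pathway that turns aromatic and branched amino acids into fusel alcohols, had 3.45 and 4.92 at 20 min, against 12.65 and 12.62 at 0 min (change -8.45, -9.32 as deposited, SE 0.45, adjusted p = 4.6e-05). GPH1, which releases glucose phosphate from glycogen, had 4.11 and 4.66 at 20 min, against 11.61 and 12.21 at 0 min (change -7.53, -8.55 as deposited, SE 0.32, adjusted p = 2.44e-05). STL1, the proton symporter for glycerol, had 6.01 and 6.38 at 20 min, against 13.51 and 13.87 at 0 min (change -7.50, -9.22 as deposited, SE 0.17, adjusted p = 9.57e-06). These 3 genes were bright before the pulse and within a few units of the lowest value after it. For STL1 the pooled spread includes null arrays at the lowest value, where its change was 0, which can make its SE and p too small. Its SD between the 2 reference arrays was 0.26 at 20 min and 0.25 at 0 min. FAT3, required for uptake of fatty acids, fell by 7.28 (-9.06 as deposited), YPL113C by 7.34 (-8.55 as deposited), AIM17 by 7.02 (-8.16 as deposited), the zinc-finger regulator USV1 by 6.94 (-7.80 as deposited) and ISF1 by 6.93 (-8.45 as deposited) (adjusted p from 2.59e-05 for AIM17 to 5.48e-05 for ISF1).

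Some transcripts crossed the limit of detection. Of the genes that rose, 10 lay at the lowest value on both 0 min arrays, and of those that fell, 14 lay there on both 20 min arrays, while 129 genes lay there at both times. The folds given for such genes are bounds in the normalized values only. Normalization moved the change of genes with a mean of 4 to 6 upward by a median of 2.31. As deposited, the rises may therefore be smaller than these bounds. LDS2, a lipid-droplet protein known from spore wall formation, had 8.53 and 8.65 at 20 min, against 2.22 and 2.12 at 0 min, which is at least 84.4-fold higher. YFL051C had 7.78 and 8.42 at 20 min, against 2.06 and 2.06 at 0 min (at least 60.1-fold higher), SET6 was at least 18-fold higher and YIL046W-A at least 13.6-fold higher. In the other direction RMR1, named for a role in meiotic recombination, had 2.15 and 2.06 at 20 min, against 9.28 and 9.27 at 0 min, at least 115-fold lower. MSF1, the phenylalanyl-tRNA synthetase of mitochondria, had 2.24 and 2.41 at 20 min, against 8.52 and 8.50 at 0 min (at least 67.5-fold lower), and ATG14, a subunit of the lipid kinase that starts autophagy, was at least 12.6-fold lower. YOL107W was at least 52.5-fold lower.

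**Figure D3:**
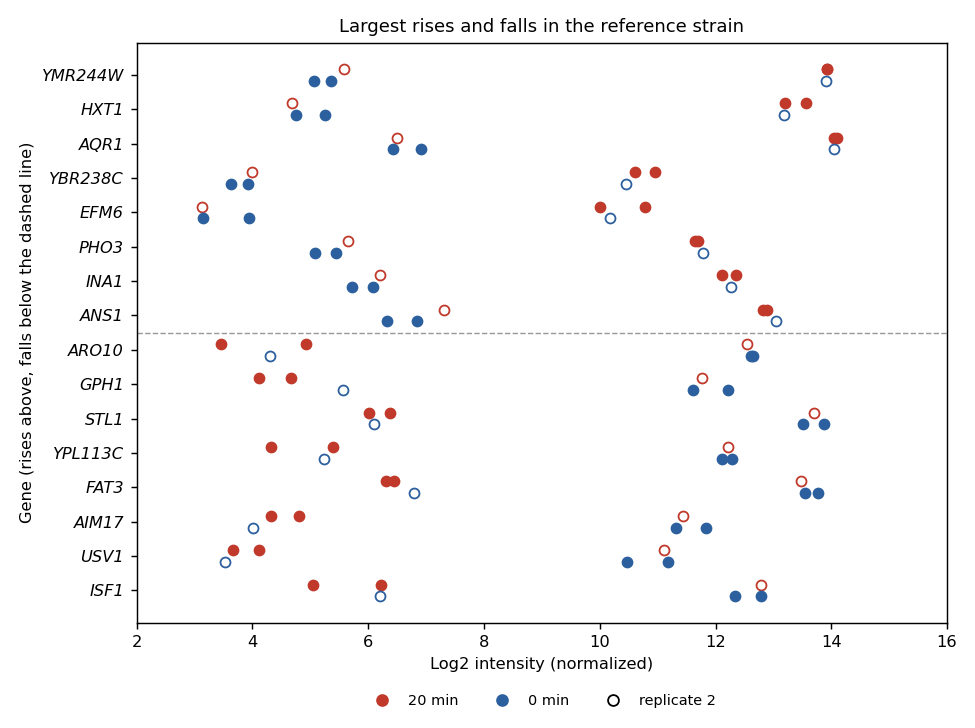
Log2 intensity (horizontal axis) of the 8 genes with the largest rises and the 8 with the largest falls among those at least 1 log2 unit above the lowest value on all 4 arrays, by gene (vertical axis), on the reference arrays. Red marks are 20 min and blue marks 0 min, filled for replicates 1 and 3 and open for replicate 2; in all 16 genes the filled marks of the 2 times lie apart and each open mark lies with the other time.

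Genes for the uptake of nutrients changed in both directions. A list of 13 carriers for carbon sources other than hexoses also holds peptide carriers. Of the 13, 2 rose and 9 fell (1 and 9 as deposited), with a median of -2.65 (-3.19 as deposited). JEN1, the lactate and pyruvate permease, had 10.78 and 10.76 at 20 min, against 14.98 and 14.92 at 0 min (change -4.18, SE 0.11, adjusted p = 1.06e-05), and ADY2, an acetate transporter, had 10.69 and 10.92 at 20 min, against 14.65 and 14.99 at 0 min (change -4.02). Its homolog ATO2 fell by 5.99 (-6.82 as deposited) and ATO3 by 2.78, and the maltose permeases MAL11 and MAL31 by 2.65 (-3.44 as deposited) and 2.55 (-3.19 as deposited). The 2 that rose carry peptides: OPT1, a transporter of oligopeptides and glutathione, by 4.25 (2.38 as deposited) and PTR2, of di- and tripeptides, by 2.45 (-0.03 as deposited, not called). None of the carriers of carbon compounds was called as rising in the normalized or the deposited values. Under each of the other 2 scalings 3 of the 13 rose.

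Of 31 permeases for amino acids, bases and vitamins, 17 rose and 7 fell (13 and 12 as deposited), with a median of 0.92 (0.44 as deposited). GNP1, the high-affinity glutamine permease, had 13.93 and 14.07 at 20 min, against 10.52 and 10.25 at 0 min (change 3.61, SE 0.22, adjusted p = 6.65e-05). The histidine permease HIP1 rose by 2.74, the tryptophan and tyrosine permease TAT2 by 2.56, the broad permease AGP1 by 2.81 (2.15 as deposited) and the uracil permease FUR4 by 2.05. GAP1, the general permease used on poor nitrogen sources, had 9.65 and 9.14 at 20 min, against 13.01 and 12.41 at 0 min (change -3.32, -3.94 as deposited, SE 0.30, adjusted p = 0.000291). The proline permease PUT4 fell by 4.24, AGP2, a plasma membrane regulator and carrier of carnitine, by 5.77 (-7.26 as deposited) and AGP3 by 2.76 (-4.35 as deposited).

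Ion carriers rose and fell in shares close to those of all genes. Of 25 measured, 11 rose and 8 fell (8 and 10 as deposited), with a median of 0.55 (0.29 as deposited), which is 44.0% and 32.0%, against 39.3% and 33.0% of all genes. PHO84, the high-affinity phosphate transporter, had 8.62 and 8.29 at 20 min, against 2.81 and 2.56 at 0 min (change 5.78, 4.21 as deposited, SE 0.48, adjusted p = 0.000199). The iron transporter FET4 rose by 5.20 (3.75 as deposited), FET3, the oxidase of high-affinity iron uptake, by 2.78 (2.09 as deposited), the low-affinity phosphate transporter PHO90 by 2.78 and the zinc transporter ZRT1 by 1.73. The sulfate permease SUL1 fell by 3.52 and the ammonium permeases MEP2 and MEP1 by 2.57 and 1.71. PMA2, the minor plasma membrane proton pump, fell by 2.61, while its abundant paralog PMA1 had a change of 0.55 that did not pass (adjusted p = 0.152).

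Several activators of the ethanol program fell as transcripts themselves. A list of 26 genes holds activators of growth on ethanol and of stress genes, with their kinases and other regulators such as the repressor XBP1. Of the 26, 3 rose and 16 fell (2 and 20 as deposited), with a median of -0.88 (-1.35 as deposited). With arrays centred on their medians or on the reference genes, 13 of the 26 fell and 4 rose. CAT8, the zinc-cluster activator of gluconeogenic genes, had 3.49 and 3.55 at 20 min, against 10.95 and 11.06 at 0 min (change -7.49, -8.21 as deposited, SE 0.14, adjusted p = 9.57e-06). ADR1, which activates ADH2 and peroxisomal genes, had 6.19 and 7.62 at 20 min, against 12.08 and 12.46 at 0 min (change -5.36, -7.05 as deposited, SE 0.50, adjusted p = 0.000308). The stress-induced repressor XBP1 fell by 6.32 (-7.85 as deposited), the kinase YAK1, which opposes growth, by 4.23 (-5.88 as deposited) and SIP2, a beta subunit of the Snf1 complex, by 3.92 (-5.80 as deposited). Other regulators of the same program fell less, did not pass or rose. HAP4, the regulated subunit of the activator of respiratory genes, fell by 1.0 (adjusted p = 0.0219), while HAP1 changed by 0.08 (-0.05 as deposited) and the stress factors MSN2 and MSN4 by -0.16 and 0.48 (-0.89 as deposited, called as a fall), none of them past the test. ERT1, a zinc-cluster regulator of gluconeogenesis, rose by 3.17 (2.24 as deposited) and the demethylase gene RPH1 by 2.03.

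Of 20 repressors of glucose-regulated genes and their partners, 9 rose and 3 fell (9 and 5 as deposited), with a median of 0.23 (0.17 as deposited). MIG3 rose by 4.85 (3.38 as deposited) and MIG1 by 1.57 (0.90 as deposited), beside MIG2. STD1, which together with MTH1 keeps the hexose transporter genes repressed by Rgt1, had 11.99 and 12.29 at 20 min, against 8.05 and 7.48 at 0 min (change 4.37, 3.30 as deposited, SE 0.25, adjusted p = 5.51e-05), whereas MTH1 fell by 3.33 (-5.31 as deposited). REG2, a targeting subunit of the phosphatase Glc7, had 9.03 and 8.36 at 20 min, against 13.74 and 14.08 at 0 min (change -5.21, -6.17 as deposited), while its homolog REG1 had a change of -0.41 (-0.73 as deposited, called as a fall) that did not pass. SUT1 and SUT2, regulators linked to sterol uptake and anaerobic growth, rose by 1.96 (1.33 as deposited) and 2.35.

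Members of the protein kinase A pathway, which relays glucose through cyclic AMP, also changed in opposite directions. Of 17 measured, 4 rose and 9 fell (4 and 9 as deposited), with a median of -1.0 (-1.09 as deposited). These are shares of 23.5% and 52.9%, against 39.3% and 33.0% of all genes. TPK2, a catalytic subunit, had 8.14 and 7.94 at 20 min, against 12.12 and 12.27 at 0 min (change -4.15, -5.57 as deposited, SE 0.18, adjusted p = 2.56e-05), while the catalytic subunit TPK3 had 11.58 and 11.77 at 20 min, against 9.51 and 9.05 at 0 min (change 2.40, 1.75 as deposited, SE 0.21, adjusted p = 0.000251). BCY1, the inhibitory subunit, fell by 2.34 and the adenylate cyclase CYR1 by 2.35 (-3.17 as deposited). RGS2, a negative regulator of the receptor-linked G protein Gpa2, rose by 4.0 (2.78 as deposited), and PDE2, the high-affinity phosphodiesterase that degrades cyclic AMP, by 3.47. RAS1 rose by 3.48 (2.81 as deposited) and RAS2 fell by 1.02. TPK3 and RAS1 thus rose, while TPK2 and RAS2 fell.

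Of 20 regulators of ribosome genes, 7 rose and 5 fell (7 and 8 as deposited), with a median of 0.02 (-0.17 as deposited). IFH1, the coactivator of ribosomal protein genes, had 12.58 and 12.59 at 20 min, against 9.63 and 9.51 at 0 min (change 3.01, SE 0.35, adjusted p = 0.000689), and CRF1, a corepressor of the same genes, had 7.55 and 6.83 at 20 min, against 10.20 and 10.24 at 0 min (change -3.03, -5.12 as deposited, SE 0.31, adjusted p = 0.00041). FHL1, which anchors both at promoters, rose by 2.34 (1.50 as deposited), the kinase SCH9 by 1.08 and SFP1 by 1.04. TOD6, a repressor of ribosome biogenesis genes, rose by 3.02, and its paralog DOT6 had a change of -0.48 that did not pass. MAF1, the repressor of RNA polymerase III, fell by 1.11.

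Most genes of ribosome assembly helicases, tRNA modification, splicing and nuclear transport receptors rose. All 19 RNA helicases of ribosome assembly rose, by 2.03 to 4.97 (3.84 as deposited), with a median of 2.96 (2.69 as deposited, where all 19 were called too), against 39.3% of all genes. FAL1, needed for the small subunit, had 12.32 and 12.32 at 20 min, against 6.86 and 7.83 at 0 min (change 4.97, 3.84 as deposited, SE 0.52, adjusted p = 0.000456), and PRP43, which acts in splicing as well, rose by 3.71. Of 40 genes of tRNA modification and splicing, 35 rose and 1 fell (33 and 2 as deposited), with a median of 2.09 (1.79 as deposited). TRM11, a tRNA guanosine methyltransferase, had 13.18 and 13.30 at 20 min, against 9.17 and 9.39 at 0 min (change 3.96, SE 0.36, adjusted p = 0.000281), the methyltransferase TRM5 rose by 3.95 (2.79 as deposited) and the pseudouridine synthase DEG1 by 3.86 (2.74 as deposited). The exception was TPT1, a phosphotransferase of tRNA splicing, which fell by 0.40 (-1.04 as deposited).

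Of 25 nuclear transport receptors and proteins of the Ran cycle, 19 rose and 3 fell (18 and 5 as deposited), with a median of 1.48 (1.25 as deposited). ARX1, an export factor of the large ribosomal subunit, had 13.90 and 13.95 at 20 min, against 10.76 and 11.09 at 0 min (change 3.0, SE 0.23, adjusted p = 0.000149), and LOS1, the exporter of tRNA, rose by 2.30. MTR2, part of the mRNA exporter, rose by 2.57. The import receptor KAP114 fell by 1.18 (-2.12 as deposited), the receptor MSN5 by 1.03 and the Ran protein GSP2 by 2.11. Of 31 subunits of the nuclear pore itself, 19 rose and 2 fell (12 and 4 as deposited), with a median of 0.69 (0.53 as deposited). POM34, a pore membrane protein, rose by 1.69 and NUP159, a pore subunit that faces the cytoplasm, fell by 0.74.

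Of 41 spliceosome genes, 35 rose and 0 fell (23 and 4 as deposited), with a median of 1.51 (0.64 as deposited). None fell at an unadjusted p under 0.05 in the normalized values. PRP24, which recycles the U6 particle, rose by 3.33 (1.31 as deposited) and SNU13, shared by the spliceosome and by small nucleolar particles, by 2.45. Of 43 subunits of RNA polymerase II, its general factors and Mediator, 24 rose and 2 fell (13 and 9 as deposited), with a median of 0.70 (0.24 as deposited). The polymerase subunit RPB9 had 12.14 and 12.38 at 20 min, against 9.09 and 9.28 at 0 min (change 3.08, 2.47 as deposited, SE 0.23, adjusted p = 0.000128), and the Mediator kinase module subunit SSN2 fell by 1.11 (-2.32 as deposited). Of 35 genes of mRNA decay, 14 rose and 3 fell (7 and 7 as deposited), with a median of 0.35 (0.06 as deposited). The 40.0% that rose lies close to the 39.3% of all genes. The nonsense-mediated decay factor UPF3 rose by 3.10 (1.57 as deposited), and XRN1, the main 5′ to 3′ exonuclease, fell by 1.19.

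**Figure D4:**
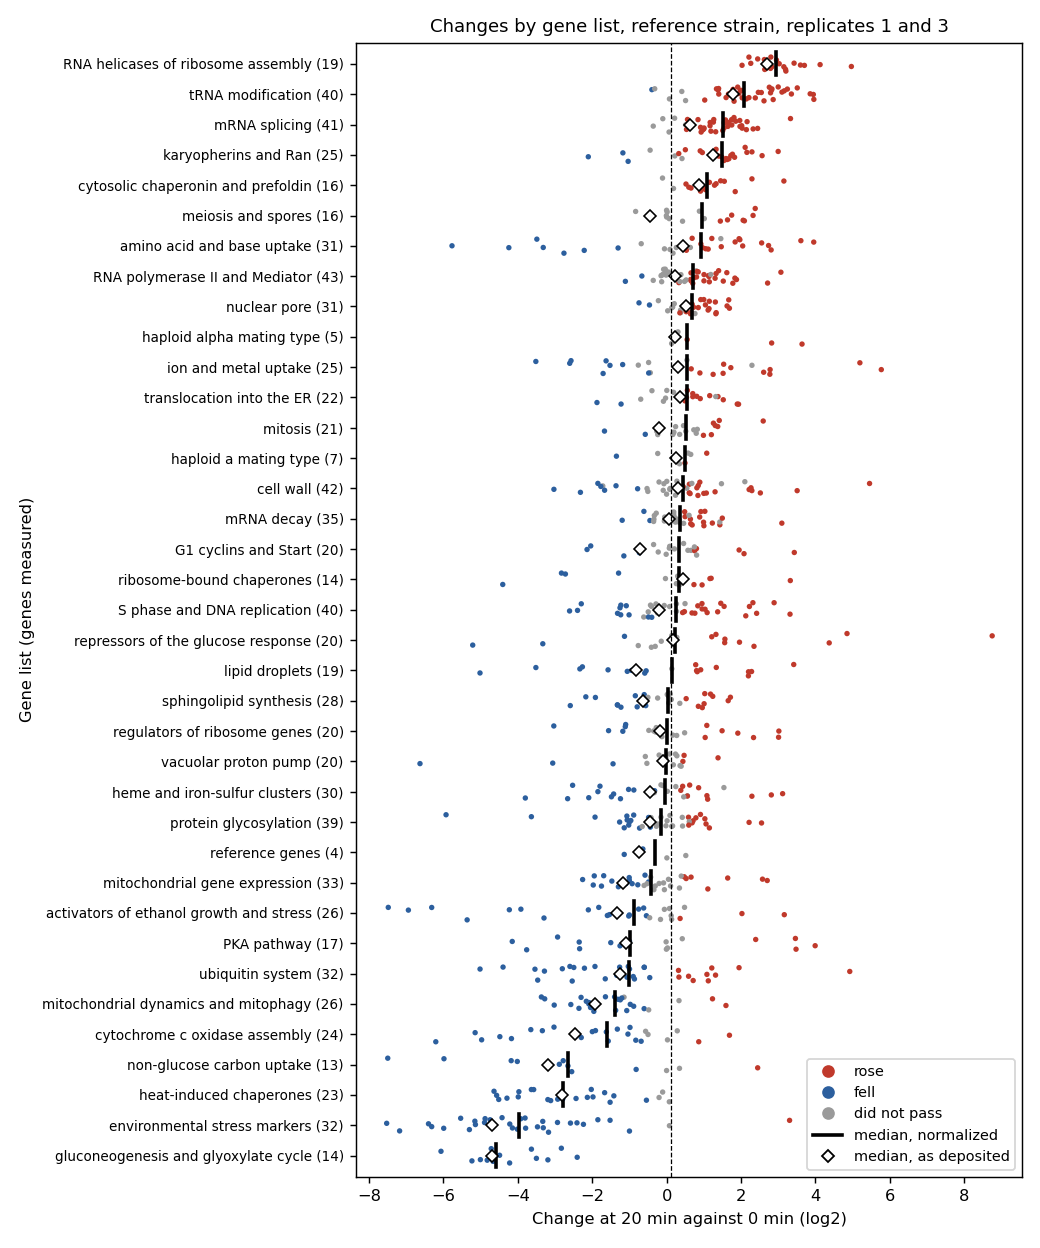
Change at 20 min against 0 min (horizontal axis, log2) of every measured gene of the lists described here, by list (vertical axis, with the number measured), with 1 point per gene, a bar at the list median and an open diamond at the median as deposited. Red points rose, blue points fell and grey points did not pass; the dashed line is the median of all 5449 genes, 0.13.

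Chaperone lists differed in their counts. Of 16 genes of the cytosolic chaperonin and prefoldin, which fold actin and tubulin, 14 rose and 0 fell (13 and 0 as deposited), with a median of 1.10 (0.86 as deposited). The prefoldin subunit GIM3 had 12.21 and 12.36 at 20 min, against 9.24 and 9.01 at 0 min (change 3.16, 2.53 as deposited, SE 0.36, adjusted p = 0.000615). Of 23 heat-induced chaperones, 0 rose and 20 fell (0 and 21 as deposited), with a median of -2.79 (-2.82 as deposited). HSP104, the disaggregase, had 10.51 and 10.76 at 20 min, against 15.02 and 14.84 at 0 min (change -4.29, SE 0.13, adjusted p = 1.4e-05). The mitochondrial HSP78 fell by 4.64 and the Hsp70 SSA1 by 4.51. No gene of the chaperonin list had an unadjusted p under 0.05 for a fall, and no gene of the heat-induced list had one for a rise. Among 14 chaperones bound to ribosomes and their cofactors, 6 rose and 4 fell (7 and 5 as deposited), with a median of 0.32 (0.44 as deposited). The shares, 42.9% and 28.6%, lie near the 39.3% and 33.0% of all genes. JJJ1, which acts on large-subunit precursors, rose by 3.33 (2.42 as deposited) and ZUO1, the Hsp40 at the ribosome exit, by 1.20, while the nucleotide exchange factor SSE2 fell by 4.41 (-5.21 as deposited) and the cochaperone STI1 by 2.72.

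All 32 genes of the ubiquitin list passed the test in the normalized values, against 72.3% of all genes. Of these, 10 rose and 22 fell (9 and 22 as deposited), with a median of -1.01 (-1.25 as deposited). The shares, 31.25% and 68.75%, stand against 39.3% and 33.0% of all genes. UBC8, the conjugating enzyme that takes part in the breakdown of gluconeogenic enzymes, had 8.22 and 8.50 at 20 min, against 13.37 and 13.38 at 0 min (change -5.02, -6.22 as deposited, SE 0.13, adjusted p = 1.01e-05). UBP15, a deubiquitinase, fell by 4.40 (-5.81 as deposited), CDC48, the ATPase that extracts ubiquitinated proteins, by 3.54 and UBA1, the activating enzyme, by 3.29. UBC11 had 8.73 and 8.55 at 20 min, against 3.76 and 3.66 at 0 min (change 4.93, 3.27 as deposited, SE 0.19, adjusted p = 1.95e-05). The other genes that rose include CDC34, the conjugating enzyme of the cell cycle, with 1.09, RAD6 with 1.32, and the 3 genes that encode ubiquitin fused to ribosomal proteins, RPL40A, RPL40B and RPS31, with 0.32, 1.22 and 0.33. UBI4, the stress-induced polyubiquitin gene, fell by 1.93. With arrays centred on the 4 reference genes, 17 of the 32 fell and 10 rose.

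The secretory pathway showed mixed changes. Of 22 genes of translocation into the endoplasmic reticulum, 12 rose and 2 fell (6 and 4 as deposited), with a median of 0.55 (0.35 as deposited). SEC72, a subunit of the complex for translocation after translation, rose by 1.90 (1.21 as deposited, not called), while SEC61, the channel, fell by 1.22 and KAR2, the Hsp70 of its lumen, by 1.87. Of 39 glycosylation genes, 11 rose and 14 fell (6 and 20 as deposited), with a median of -0.15 (-0.44 as deposited). The median was 0.06 with arrays centred on their medians and 0.18 with the reference genes. The shares that rose and fell, 28.2% and 35.9%, stand against 39.3% and 33.0% of all genes. RER2, a dolichol synthase, rose by 2.55, and ALG13, which adds the second sugar of the lipid-linked precursor, had 4.46 and 4.39 at 20 min, against 10.59 and 10.13 at 0 min (change -5.93, -7.20 as deposited, SE 0.24, adjusted p = 2.17e-05).

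Of 42 cell wall genes, 18 rose and 7 fell (14 and 8 as deposited), with a median of 0.43 (0.31 as deposited). These are shares of 42.9% and 16.7%, against 39.3% and 33.0% of all genes. UTR2, which links chitin to glucan, had 13.35 and 13.23 at 20 min, against 8.10 and 7.56 at 0 min (change 5.46, 4.42 as deposited, SE 0.27, adjusted p = 3.69e-05). The mannoproteins TIR1, TIR2, TIR3 and TIR4, known from cold and anaerobic growth, rose by 2.52 (0.35 as deposited, not called), 3.51 (1.20 as deposited), 2.27 (0.58 as deposited, not called) and 2.22 (-0.22 as deposited, not called). CWP1 had 9.86 and 9.75 at 20 min, against 12.97 and 12.70 at 0 min (change -3.03, SE 0.14, adjusted p = 3.2e-05), and SED1 and SPI1, wall proteins of stationary cells, fell by 1.77 and 1.67 (-2.30 as deposited). Of 20 genes of the vacuolar proton pump, 3 rose and 3 fell (4 and 4 as deposited), with a median of -0.01 (-0.09 as deposited). The 3 that fell were assembly factors: RAV1 had 2.65 and 2.92 at 20 min, against 9.64 and 9.19 at 0 min (change -6.63, -7.37 as deposited, SE 0.23, adjusted p = 1.6e-05), RAV2 fell by 3.06 (-4.55 as deposited) and VPH2 by 1.44 (-3.46 as deposited).

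Lipid genes changed in both directions. Of 28 sphingolipid genes, 9 rose and 10 fell (8 and 15 as deposited), with a median of 0.05 (-0.64 as deposited), shares close to those of all genes. LCB1, a subunit of the first enzyme of the pathway, rose by 1.72 and the elongases ELO3 and ELO2 by 1.66 and 1.24, while the ceramidases YPC1 and YDC1 fell by 2.59 (-3.98 as deposited) and 2.17 (-2.83 as deposited). Of 19 lipid droplet genes, 9 rose and 9 fell (5 and 10 as deposited), with a median of 0.14 (-0.82 as deposited). The shares, 47.4% each, stand against 39.3% and 33.0% of all genes. ARE2, which esterifies sterols, had 8.42 and 9.27 at 20 min, against 5.36 and 5.49 at 0 min (change 3.42, 1.32 as deposited, SE 0.28, adjusted p = 0.000203). PAH1, the phosphatidate phosphatase that makes diacylglycerol, had 7.55 and 6.49 at 20 min, against 10.52 and 10.55 at 0 min (change -3.52, -5.54 as deposited, SE 0.33, adjusted p = 0.000316), and NEM1, the phosphatase that activates it, fell by 5.02 (-6.80 as deposited).

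Genes of 2 mitochondrial lists fell for the most part. Of 24 assembly factors of cytochrome c oxidase and the bc1 complex, 2 rose and 18 fell (1 and 22 as deposited), with a median of -1.60 (-2.45 as deposited). SHY1 had 4.72 and 5.08 at 20 min, against 10.01 and 10.08 at 0 min (change -5.15, -6.70 as deposited, SE 0.15, adjusted p = 1.26e-05), COA4 fell by 6.21 (-7.18 as deposited), and the copper chaperones SCO1 and COX17 by 3.34 (-5.05 as deposited) and 3.03 (-4.06 as deposited). The 2 that rose were COX19 by 1.69 and COX18 by 0.87 (-0.41 as deposited, called as a fall). Of 26 genes of mitochondrial shape, inheritance and mitophagy, 2 rose and 21 fell (2 and 24 as deposited), with a median of -1.38 (-1.93 as deposited). UGO1, which acts in outer membrane fusion, had 7.20 and 7.18 at 20 min, against 10.46 and 10.65 at 0 min (change -3.37, -5.42 as deposited, SE 0.19, adjusted p = 5.86e-05). The fission dynamin DNM1 fell by 2.58 and its membrane anchor FIS1 by 2.05, whereas CAF4, an adaptor between these proteins, rose by 1.60. The MICOS subunits MIC10, MIC19, MIC26, MIC27 and MIC60, which shape the inner membrane, fell by 1.21 to 2.30.

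Expression of the mitochondrial genome was less uniform. Of 33 genes for it, 7 rose and 14 fell (3 and 25 as deposited), with a median of -0.43 (-1.18 as deposited). TUF1, the mitochondrial elongation factor, fell by 1.97 and ABF2, which packages mitochondrial DNA, by 1.47. The helicase HMI1 rose by 2.71 (1.03 as deposited) and CBP1, which stabilises the cytochrome b message, by 2.58 (1.50 as deposited). Of 30 genes of heme and iron-sulfur clusters, 10 rose and 12 fell (8 and 14 as deposited), with a median of -0.04 (-0.46 as deposited). The shares, 33.3% and 40.0%, lie near the 39.3% and 33.0% of all genes. HEM15, the ferrochelatase, had 7.77 and 8.35 at 20 min, against 11.73 and 11.99 at 0 min (change -3.80, -5.26 as deposited, SE 0.21, adjusted p = 5.17e-05). ISU2, a scaffold for cluster assembly, had 12.97 and 12.75 at 20 min, against 9.82 and 9.65 at 0 min (change 3.12, SE 0.21, adjusted p = 9.84e-05), while its paralog ISU1 fell by 1.02. The cytosolic assembly factors DRE2 and TAH18 rose by 2.30 and 2.82 (1.81 as deposited).

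Cell cycle genes did not move as a block. Of 20 genes of G1 and Start, 5 rose and 4 fell (3 and 11 as deposited), with a median of 0.33 (-0.71 as deposited). The G1 cyclin CLN3 had 11.03 and 11.48 at 20 min, against 9.85 and 8.76 at 0 min (change 1.95, 1.23 as deposited, SE 0.48, adjusted p = 0.013), and PCL2, a cyclin of the kinase Pho85, rose by 3.44 (1.46 as deposited), while PHO85 itself fell by 2.14 and the activator SWI4 by 2.04 (-4.58 as deposited). Of 40 replication genes, 18 rose and 11 fell (11 and 15 as deposited), with a median of 0.27 (-0.21 as deposited). The counts lie near the shares of all genes. Among named members, 4 subunits of the origin recognition complex, ORC3, ORC4, ORC5 and ORC6, rose by 2.23 (1.14 as deposited) to 2.89 (1.90 as deposited), and the GINS subunit SLD5 by 3.32 (2.43 as deposited), while the 3 subunits of the single-strand binding protein, RFA1, RFA2 and RFA3, fell by 2.29 (-2.99 as deposited) to 2.61 (-3.30 as deposited). Of 21 mitotic genes, 7 rose and 2 fell (2 and 6 as deposited), with a median of 0.52 (-0.19 as deposited). The B-type cyclin CLB2 had 10.33 and 10.85 at 20 min, against 7.96 and 8.02 at 0 min (change 2.60, 1.38 as deposited, not called, SE 0.71, adjusted p = 0.0198).

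Lists that served as checks gave the following. All 14 genes of the glyoxylate cycle and gluconeogenesis fell (0 rose and 14 fell as deposited), and their median was -4.58 (-4.69 as deposited). Of 32 stress markers, 1 rose and 30 fell (1 and 30 as deposited), with a median of -3.97 (-4.69 as deposited). The stress gene that rose was GPP2, a glycerol-3-phosphatase, which had 14.75 and 15.01 at 20 min, against 11.60 and 11.54 at 0 min (change 3.31, SE 0.34, adjusted p = 0.000415). Of 7 genes of mating type a, 2 rose and 1 fell (2 and 1 as deposited), with a median of 0.50 (0.26 as deposited). Of 5 genes of mating type alpha, 3 rose and 0 fell (1 and 2 as deposited), with a median of 0.55 (0.24 as deposited). MF(ALPHA)1, an alpha factor gene, changed by 3.64 (1.58 as deposited, not called). Of 16 meiosis and spore genes, 7 rose and 0 fell (0 and 5 as deposited), with a median of 0.95 (-0.46 as deposited), so that their direction turned with the scaling. Of the 4 reference genes used for centring, 0 rose and 2 fell (0 and 2 as deposited), and 2 did not pass. ALG9 and TFC1 fell by 1.14 and 0.64, so they were not steady under quantile normalization.

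Isoforms and paralogs that serve the same step were compared with each other. Of 60 pairs of isoforms or paralogs 57 were measured. In 17 pairs the members changed in opposite directions, in 17 both fell, in 4 both rose, and in 19 at least 1 member did not pass. Since 39.3% of all genes rose and 33.0% fell, opposite calls within a pair are common, and their number is no result about pairs. The pairs with opposite calls numbered 18 as deposited and 21 under each of the other 2 scalings. For fructose-2,6-bisphosphate synthesis, PFK26 had 4.70 and 3.43 at 20 min, against 10.90 and 10.95 at 0 min (change -6.86, -7.86 as deposited, SE 0.42, adjusted p = 7.26e-05), and PFK27 had 11.85 and 12.24 at 20 min, against 6.25 and 6.38 at 0 min (change 5.73, 4.42 as deposited, SE 0.48, adjusted p = 0.000209). The ADP/ATP carrier PET9 fell by 0.91 (adjusted p = 0.00585) and AAC3, its form of anaerobic growth, had 9.07 and 9.11 at 20 min, against 3.22 and 2.86 at 0 min (change 6.05, 4.76 as deposited, SE 0.23, adjusted p = 1.97e-05). PFK27 and AAC3, both dim at 0 min, rose while the other member of the pair fell.

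The other opposite pairs are given by their changes. In the pentose phosphate pathway GND2, SOL4 and TKL2 fell by 3.81 (-4.50 as deposited), 7.18 (-8.44 as deposited) and 4.68 (-5.55 as deposited), and GND1, SOL3 and TKL1 rose by 1.11, 1.44 and 0.63. In alcohol metabolism PDC6 fell by 2.63, ADH2 by 3.50 and ADH3 by 1.24, while PDC1 rose by 0.37 and ADH1 by 0.68, which stands in both ADH pairs. GPD1, glycerol-3-phosphate dehydrogenase of osmotic stress, fell by 2.41, and GPD2 rose by 2.77. Among sensors and signalling proteins, SNF3 fell by 4.17 (-6.20 as deposited) and RGT2 rose by 1.52, and the Ran GTPase genes GSP2 and GSP1 fell by 2.11 and rose by 1.54. The pairs RAS2 and RAS1, and MTH1 and STD1, moved apart in the same way. In biosynthesis BAT2, the cytosolic branched-chain aminotransferase, fell by 3.33 and BAT1, its mitochondrial form, rose by 1.36. URA10 fell by 2.67 (-4.82 as deposited) and URA5 rose by 1.15. The glucan synthase GSC2 fell by 2.32 and FKS1 rose by 1.07, and the conjugating enzyme UBC5 fell by 2.80 and UBC4 rose by 0.72.

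**Figure D5:**
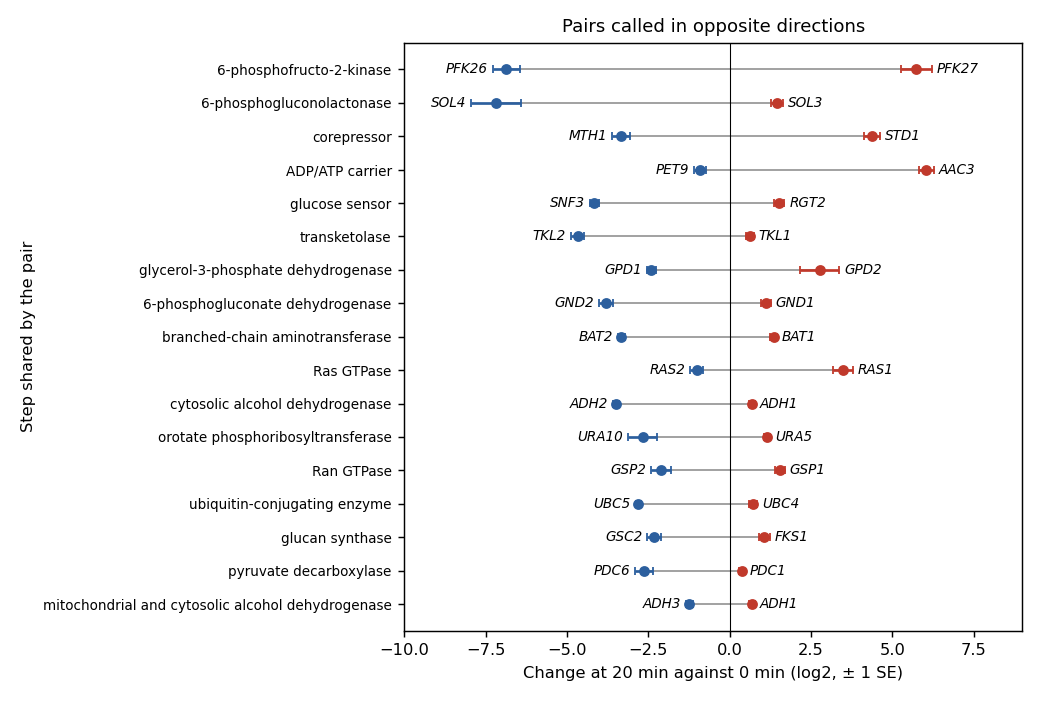
Change at 20 min against 0 min (horizontal axis, log2, with bars of 1 SE) of both members of the 17 pairs called in opposite directions, 1 pair per row, joined by a line. Blue members fell and red members rose; the widest gap is between PFK26 and PFK27.

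Several pairs had a member that changed and a member that did not pass. HXK1 fell by 4.90 and HXK2, the hexokinase of growth on glucose, changed by -0.14. PYK2 fell by 3.76 (-5.91 as deposited) and CDC19, the main pyruvate kinase, changed by 0.09. ENO1 fell by 1.99 and ENO2 changed by -0.07 (0.16 as deposited). ANB1, the eIF5A form of low oxygen, had 8.56 and 8.75 at 20 min, against 3.49 and 2.89 at 0 min (change 5.47, 3.81 as deposited, SE 0.39, adjusted p = 0.000111), and HYP2, its aerobic form, changed by -0.17 (0.04 as deposited). Near-identical copies of a gene can share a probe set, so values within the closest pairs are uncertain.

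The level of a gene before the pulse went with the direction of its change. Genes were ranked by their mean in the null strain at 0 min, which the comparison does not use. In the 20% of lowest level 52.7% rose and 9.8% fell, and in the 20% of highest level 26.5% rose and 58.1% fell. In the deposited values 24.3% rose and 34.7% fell in the lowest 20%, and 26.0% rose and 57.1% fell in the highest. The excess of rises among dim genes was therefore a feature of the normalized values, while the excess of falls among bright genes was found in both.

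Position on the chromosome was examined through neighbours, taken from the gene order of the R64 assembly. The changes of 1245 adjacent pairs transcribed away from each other correlated at 0.183, with the same sign in 57.6%. For 2330 tandem pairs the values were 0.088 and 52.8%, and for 1280 convergent pairs -0.007 and 50.4%. These values are descriptions across genes, which are not independent. Among the 10 genes at each end of the chromosomes, 320 in all, 30.6% rose and 31.6% fell. Of 499 genes known only by a systematic name, 167 rose and 125 fell (33.5% and 25.1%). Of all 5449 genes 39.3% rose and 33.0% fell, so the shares of both sets lay below those of all genes. The genes that rose had a median length of 1245 bases and those that fell 1212, so length hardly differed.

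The response was set against that of the null strain, which met the same pulse without hexose transporters. The change at 20 min differed between the strains in 3611 of 5449 genes by the interaction term (66.3%). In the null strain itself 1501 genes were called (27.5%). Both counts use replicates 1 and 3. With all 3 replicates both were 0, but 4045 and 2079 with array weights. With replicates 1 and 3 they were 3279 and 796 under a replicate block, and 2746 and 500 at an adjusted p under 0.01. Of the 2140 genes that rose in the reference strain, 273 rose (12.8%) and 555 fell (25.9%) in the null strain, and of the 1800 that fell, 104 fell (5.8%) and 274 rose (15.2%). The 555 are 69.5% of the genes that fell in the null strain. As deposited, 34 of 1419 rising genes rose (2.4%) and 620 fell (43.7%) in the null strain, and 256 of 2491 falling genes fell (10.3%) and 168 rose (6.7%). Several genes named above belong to them. TPK3 changed by 2.40 (1.75 as deposited) in the reference and -2.33 in the null strain (adjusted p of the difference 0.000123), UTR2 by 5.46 (4.42 as deposited) and -2.01 (7.34e-05), ISU2 by 3.12 and -2.56 (7.86e-05) and CLB2 by 2.60 (1.38 as deposited, not called) and -3.73 (0.00293).

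For some repressor and signalling genes no difference between the strains was detected. The change in the reference strain minus that in the null strain was 0.14 (SE 0.29) for MIG3, 0.17 (SE 0.16) for MIG1 and 0.72 (SE 0.27, adjusted p = 0.06) for RGS2. These differences did not pass the test, which does not show that the strains responded alike. STD1 rose in both strains, by 4.37 (3.30 as deposited) and 2.17, with a difference of 2.20 (SE 0.35, adjusted p = 0.00285). MIG2 rose by 8.76 in the reference and by 9.02 in the null strain, and no difference is given, since it lay near the lowest value at 0 min. The changes of HXT1, STL1 and MAL11 in the null strain cannot be compared in this way, since HXT1 is deleted there and STL1 and MAL11 lay near the lowest value on the null arrays.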

How the data were processed

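For each array the authors deposited probe set intensities on the log2 scale, and how these were summarised and scaled is not stated in the sources used here. Per the labels' protocols, RNA was prepared with RNeasy columns and DNase and hybridised as biotin-labelled cRNA. Of 10928 probe sets, 5498 matched S. cerevisiae genes of the R64 gene table through the probe annotation, which gave 5449 genes. For the 47 genes with several probe sets that of highest mean was kept. Probe sets with identifiers of another organism numbered 1746 and were not used here.

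The array medians ranged by 0.558, above a limit of 0.1, so the log2 values were quantile-normalized across the 12 arrays. A limma model (limma 3.58.1, R 4.3.3) with 4 group means was fitted to replicates 1 and 3 of both strains (4 residual degrees of freedom) and to all 3 replicates (8), with empirical Bayes moderation, Benjamini-Hochberg adjustment over all genes and calls at an adjusted p under 0.05. The pipeline was tested on simulated data, in which fewer genes changed than here. It recovered 22 of 67 changes of 1 log2 unit, 49 of 67 of 2 units and 63 of 66 of 4 units. There were 9 false calls. A gene that did not pass can therefore still have changed. The number of arrays limits the precision. A gene within 0.25 of the lowest deposited value of the array has only a bound, taken as the lowest normalized value above that limit.

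The genes named are the 3 markers, the 8 largest rises and falls, 4 at the lowest value in each direction, leading and opposing members of the lists, and members of the pairs. The 37 lists and 60 pairs were written from general knowledge of yeast, and members, lists, named genes and the use of replicates 1 and 3 were chosen with earlier results of these data known. Promoter motifs and protein features were not examined here, since no sequence was used. Alternatives covered scaling, probe sets, dim genes, the variance model, thresholds, a replicate block, array weights and left-out replicates. Plots used matplotlib 3.10.9 under Python 3.11.15.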

Additional observations from a re-analysis of the deposited data

Results flagged for a closer look

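The change at 20 min differed between the reference and the null strain in 3611 genes by the interaction term of the limma fit, and in 659 of the 973 genes of the lists and pairs (67.7%, against 66.3% of all genes). The share among the listed genes was therefore close to that of all genes. Among the markers, the change in the reference strain exceeded that in the null strain by 8.38 log2 units for HXT1, which is deleted in the null strain, and the difference was -5.18 for FBP1. Among the genes with the largest rises it was 7.83 for YMR244W, 8.60 for AQR1, 8.23 for YBR238C, 7.14 for EFM6, 6.66 for PHO3, 8.28 for INA1 and 6.35 for ANS1. Among those with the largest falls it was -8.83 for ARO10, -7.88 for GPH1, -7.50 for STL1, -7.82 for YPL113C, -7.99 for FAT3, -8.09 for AIM17, -9.42 for USV1 and -8.57 for ISF1. STL1 lay at the lowest value on all null arrays, so its difference restates its change in the reference strain. The genes were picked for the size of their change in the reference strain, which the difference contains.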

How the results depend on the processing

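With replicates 1 and 3, the count of 3940 called genes was 3910 as deposited, 4124 with arrays centred on their medians and 4141 with the reference genes, and 3419 to 3622 when 1 array of the reference strain was left out, where the lone array is assumed to vary like the other groups. It was 1963 in the test for changes over 1 log2 unit, and the count of 3611 genes that differed between the strains was then 1967. That count was 3175 to 3474 when 1 array was left out. With all 3 replicates the count of called genes and the count that differed between the strains were both 0, but 4220 and 4045 with array weights. Leaving out 1 replicate number gave 0 to 3940 called genes, the highest without replicate 2. The cause of the placement of the replicate 2 arrays was not tested. Whether the numbers pair the samples cannot be told here. The correlation of same-numbered deviations from the group means was -0.915, -0.984 and -0.899 with 3 replicates. There replicate 2 lies with the opposite time in both groups, which makes the deviations opposite. With replicates 1 and 3 the correlation was 0.081, a single value, since the deviations of 2 arrays mirror each other. A replicate block gave 3650 genes (1962 that rose and 1688 that fell). Normalizing the arrays of replicates 1 and 3 apart from replicate 2, a choice made after seeing the data, gave 3943.

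The direction of several list medians depended on the scaling, and those that differed from the normalized direction are given here. As deposited, the medians were -0.17 for regulators of ribosome genes, -0.71 for G1, -0.21 for replication, -0.19 for mitosis, -0.64 for sphingolipids, -0.82 for lipid droplets and -0.46 for meiosis. With centred medians they were 0.058 for glycosylation, 0.41 for the vacuolar pump, -0.22 for G1, -0.15 for sphingolipids, -0.32 for lipid droplets and 0.038 for heme and iron-sulfur clusters. With the reference genes they were 0.18, 0.54, -0.089, -0.020, -0.20 and 0.16 for the same lists. All other list medians kept their direction under these 3 scalings.

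Of 229 named genes, 216 kept their direction and call as deposited, 215 with centred medians and 212 with the reference genes, but 9 with all 3 replicates, where 219 no longer passed. As deposited the sign turned for COX18 (-0.41), ENO2 (0.16), HAP1 (-0.051), HYP2 (0.04), MSN4 (-0.89), PTR2 (-0.031) and TIR4 (-0.22). With centred medians it turned for ENO2 (0.66), HXK2 (0.38), HYP2 (0.54) and MSN4 (-0.39), and with the reference genes for ENO2 (0.79), HXK2 (0.51), HYP2 (0.66), MSN2 (0.11) and MSN4 (-0.27). Without 1 array at 0 min it turned for CDC19 (-0.065 in the range up to 0.244) and ENO2 (0.077), and with all 3 replicates for HXK2 (0.06).

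The changes of dim genes differed between scalings by over 2 log2 units, and genes at the lowest value have only a bound.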
